A study of Mus musculus with 3 samples.

Results

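The mouse genes numbered from Zfp930 to Zfp964 in the deposited table are a stretch of the numbered Zfp series, whose members encode proteins with C2H2 zinc fingers that read DNA. They were chosen by name, as every gene whose symbol falls in the range Zfp900 to Zfp999. The rule found 32 of the 16977 genes in the table, and they are called the Zfp900 series below. They were measured in cultured neural stem cells, which divide to build the embryonic brain, from C57BL/6J mouse embryos at stage E12.5 and grown on poly-D-lysine and laminin with EGF and FGF. The shPHF2 cells were infected with a lentivirus that carried a short hairpin RNA against PHF2 (2 libraries, described as biological replicates), and the shControl cells with one that carried a control hairpin (1 library). RNA depleted of ribosomal RNA was sequenced in all 3 libraries. Whether the shPHF2 replicates came from separate infections is not stated. With 1 shControl library, the spread behind the p-values is that between the 2 shPHF2 libraries, moderated by that of other genes. The p-values therefore do not reach beyond these libraries.

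PHF2 belongs to a family of demethylases that act on methylated lysine 9 of histone H3 (H3K9). KRAB zinc finger proteins act on methylation of the same lysine by bringing in enzymes that write it. Their fingers bind chosen DNA sequences, many of them in transposable elements, and their KRAB domain recruits the corepressor TRIM28 (KAP1), which brings in the H3K9 methyltransferase SETDB1 and HP1 proteins. The genes themselves lie in clusters of related copies, and many of these clusters carry H3K9 methylation in other cell types. No H3K9 methylation was measured here.

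Most members had the architecture of KRAB zinc finger proteins in a search of their translated transcripts (GENCODE M21, GRCm38). Of 31 members annotated as protein coding, 28 had a match to a KRAB box in at least 1 transcript and 30 had C2H2 fingers, with a median of 11 and at most 18 fingers, in Zfp945. Zfp935, Zfp956 and Zfp957 had no KRAB match, and Zfp957 had no finger of the pattern searched. Zfp939 is annotated as a transcribed pseudogene. The members lay on 11 chromosomes, and 10 of them on chromosome 17. Members within 1 Mb of each other formed a run of 7 on chromosome 17 from 21567008 to 22867134 (Zfp948, Zfp942, Zfp943, Zfp947, Zfp944, Zfp946 and Zfp945), a run of 3 on chromosome 8 from 69209038 to 69749970 (Zfp930, Zfp964 and Zfp963) and a pair on chromosome 13 from 62453715 to 62571199 (Zfp935 and Zfp934).

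The promoter windows of 3 members show the sequence at the starts of the genes on which the results below turn. Zfp961 and Zfp948 are the members that fell, and Zfp964 had the largest positive log2 fold change. Each window runs from 250 bases before to 50 bases after a RefSeq start (GRCm38.p6), all on the plus strand, at chr8:71950816-71951115 for Zfp961, chr17:21566728-21567027 for Zfp948 and chr8:69654306-69654605 for Zfp964. Capitals mark matches to an E2F-type motif (the letters TTCCCGC or TTCGCGC, and also TTGCCGC and likewise TTGGCGC) or to a YY1-type motif (AANATGGC), on either strand.
Zfp961: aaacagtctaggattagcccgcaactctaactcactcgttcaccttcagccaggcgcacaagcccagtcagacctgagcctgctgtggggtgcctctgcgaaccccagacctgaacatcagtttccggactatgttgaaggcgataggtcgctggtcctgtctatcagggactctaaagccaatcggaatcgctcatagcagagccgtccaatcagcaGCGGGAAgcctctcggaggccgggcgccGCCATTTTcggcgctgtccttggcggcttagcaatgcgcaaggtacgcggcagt
Zfp948: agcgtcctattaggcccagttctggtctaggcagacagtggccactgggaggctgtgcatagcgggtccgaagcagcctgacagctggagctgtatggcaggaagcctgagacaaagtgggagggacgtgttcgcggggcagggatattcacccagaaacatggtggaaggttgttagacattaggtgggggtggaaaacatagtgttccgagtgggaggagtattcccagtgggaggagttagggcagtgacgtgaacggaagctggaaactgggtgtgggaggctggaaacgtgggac
Zfp964: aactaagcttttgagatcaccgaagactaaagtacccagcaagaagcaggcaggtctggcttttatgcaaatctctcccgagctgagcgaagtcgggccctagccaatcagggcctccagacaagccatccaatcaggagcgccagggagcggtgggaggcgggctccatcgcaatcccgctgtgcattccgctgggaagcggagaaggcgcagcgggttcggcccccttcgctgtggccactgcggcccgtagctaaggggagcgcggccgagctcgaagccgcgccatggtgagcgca
The Zfp961 window held 1 match to each motif and 21 CG dinucleotides, and its YY1-type match GCCATTTT ran across the start. The windows of Zfp948 and Zfp964 held no match, with 10 and 24 CG dinucleotides. RefSeq gave 35 windows for 29 of the members. An E2F-type match was in 3 of these 35 windows (8.57%) and in 9.57% of all 32851 windows. A YY1-type match was in 4 of the members' 35 windows (11.4%) and in 6.05% of all windows. The median number of CG dinucleotides was 9 in the members' windows and 7 in all windows. The motifs were chosen with the members' values known, a match is not a bound site, and the matches shown do not overlap each other.

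Values are normalised read counts, in which each library's reads were divided by its own size factor. Reads assigned to genes numbered 37171026 in shPHF2 replicate 1, 26302177 in shPHF2 replicate 2 and 32898139 in shControl. Phf2 itself had 985 and 714 normalised reads in the shPHF2 libraries, against 2593 in shControl, a log2 fold change of -1.63 (adjusted p = 0.0085 by limma; SE 0.24). All 12 markers of neural stem cells and radial glia had at least 10 normalised reads in every library, and they summed to 351430 and 394110 in the shPHF2 libraries, against 338340 in shControl. Of these 12, Vim, Sox2 and Slc1a3 were above shControl in both shPHF2 libraries, Slc1a3 only slightly in replicate 1 (59509, against 59218). The 5 below it in both were Nes, Sox1, Pax6, Hes1 and Hes5. Sox1 had 1687 and 1587, against 2338, and Pax6 had 1046 and 691, against 1391.5. Hes5, a Notch target, had 20.0 and 14.5, against 39.9. Summed markers of neurons came to 38309 and 39053 in the shPHF2 libraries, against 60345 in shControl, mostly Map2. Map2, Rbfox3 and Snap25 were below shControl in both, Rbfox3 with 87.5 and 13.3, against 141.5. Tubb3 and Neurod1 were above it in both, Tubb3 with 198 and 346, against 104, and Neurod1 with 26.7 and 44.6, against 3.99. Dcx lay on either side of shControl. Neurod6 and Stmn2, also on the neuronal list, had no values. Oligodendrocyte lineage markers, chiefly Olig1 and Olig2, summed to 62823 and 82335, against 67499. Astrocyte markers summed to 3421 and 5201, against 4331, mostly Gja1, which had 2158 and 3284, against 3853. The other 4, S100b, Aldh1l1, Gfap and Aqp4, were above shControl in both shPHF2 libraries, S100b with 1094 and 850.0, against 331, and Aqp4 at 0 in shControl. Microglial markers summed to 234.3 and 227 against 111, mostly P2ry12, which had 204 and 213, against 99.7. Of the others, Csf1r had 27.51 and 10.85, against 10.965, and Aif1 had 2.50 and 2.41, against 0. Cx3cr1 and Ptprc, also on the microglial list, had no values. Endothelial markers summed to 169 and 80.8 against 211, and fibroblast ones to 13.3 and 9.65 against 6.98. The part of these markers in the members' values was not tested. In such bulk libraries, fewer cells of a type and less RNA per cell cannot be told apart.

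Few members of the Zfp900 series passed the test when Phf2 was lowered. The comparison asked whether their transcripts differed between shPHF2 and shControl cells. Zfp936 had 1 read in each shPHF2 library and 0 in shControl and was not tested. The other 31 reached a mean of at least 10 normalised reads over the 3 libraries. Of these, 2 fell and 0 rose (limma with a mean-variance trend, adjusted p under 0.05), where 7.11% of all 14148 genes tested were called lower and 7.22% higher, 14.3% in all. At an unadjusted p under 0.05, 4 members were lower and 0 higher, against 15.4% and 15.8% of all genes. No other tool run called a member higher: edgeR and DESeq2 on the recovered reads gave 3 and 1 lower and 0 higher. The count of 2 depends on the setting, since limma called 0 members, and 0 genes of any kind, without the trend, without the filter on low values and after quantile normalization.

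The estimated change was under 2-fold for each of the 31 members tested. The log2 fold changes of the 31 members ran from -0.89 to 0.66, so 0 members reached a 2-fold change, while 16.6% of all genes tested did. Their median was -0.16, beside a median of -0.01 over all genes tested, and taken alone replicate 1 gave -0.14 and replicate 2 gave -0.17. The median absolute log2 fold change was 0.43 for members and 0.41 for all genes tested. For 16 members the 95% interval of the log2 fold change lay wholly within 1 on either side of 0, a share of 51.6%, against 47.0% of all genes tested. For the other 15 members, a 2-fold change lay inside the interval. Both shPHF2 libraries were below shControl for 16 members and above it for 11, and they lay on either side of it for 4. Over all genes tested, both were below for 41.8% and both above for 41.4%.

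**Figure D1:**
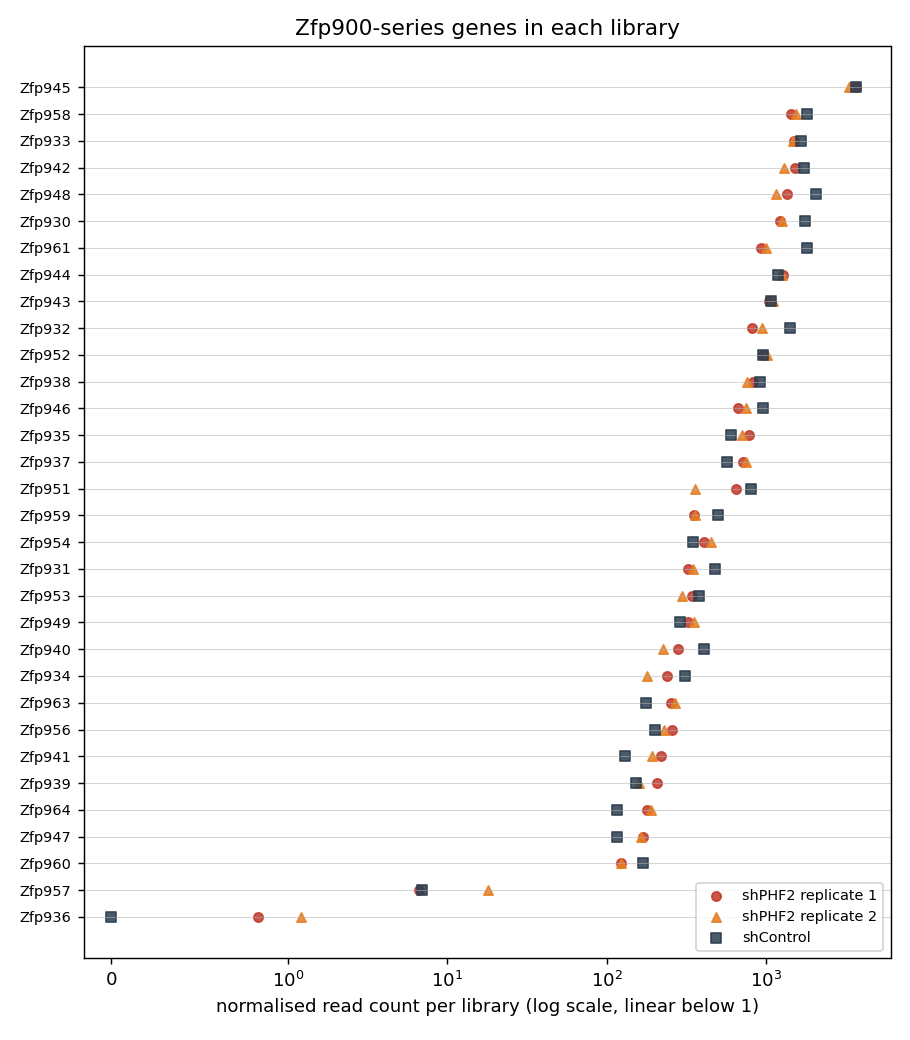
Normalised read counts (horizontal axis, log scale, linear below 1) of the 32 Zfp900-series genes in the shPHF2 replicates (circles and triangles) and the shControl library (squares), 1 point per library, ordered by mean. Zfp945 lies at the top with 3275 to 3667 normalised reads, and Zfp936 at the bottom with at most 1.21.

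Zfp961, a KRAB gene with 11 fingers on chromosome 8 (71951038 to 71993792, plus strand), was the member that fell most. It had 931 and 997 normalised reads in the shPHF2 libraries, against 1790 in shControl. The shPHF2 mean was 964 ± 46.6 (SD, n = 2), 53.9% of the shControl value, and the shPHF2 libraries lay close together and well below the control. The log2 fold change was -0.89 (SE 0.20; limma, adjusted p = 0.025), with a 95% interval from -1.35 to -0.44. The authors' deposited table also called it, at a log2 fold change of -0.89 and an adjusted p of 0.014, and it was the only 1 of 30 members with an adjusted p there to be called, where 7.96% of all genes were called lower and 8.04% higher. Over the alternative settings its adjusted p ran from 0.015 to 0.17, and it was above 0.05 in the limma settings named above that called no gene. On the opposite strand the annotation places Cyp4f18, a fatty acid hydroxylase gene that overlaps Zfp961, and on the same strand Gm45694 overlaps it. The library kit keeps strand, but whether the counting used it is not stated. How reads in any exon shared with Gm45694 were counted is not stated either.

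Zfp948, the first member of the chromosome 17 run (21567008 to 21588699, plus strand), encodes 15 fingers and passed the threshold by a narrow margin. It had 1342 and 1151 normalised reads in the shPHF2 libraries, against 2037 in shControl. Both shPHF2 values were below the control, with a mean of 1247 ± 135 (SD, n = 2). The log2 fold change was -0.71 (SE 0.20; limma, adjusted p = 0.0499). The call was lost with a pseudocount of 5 (adjusted p = 0.051), with DESeq2 on the recovered reads (adjusted p = 0.066) and in the settings that called no gene, and its adjusted p over all alternatives ran from 0.038 to 0.21. The authors' adjusted p for it was 0.059 in their deposited table.

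**Figure D2:**
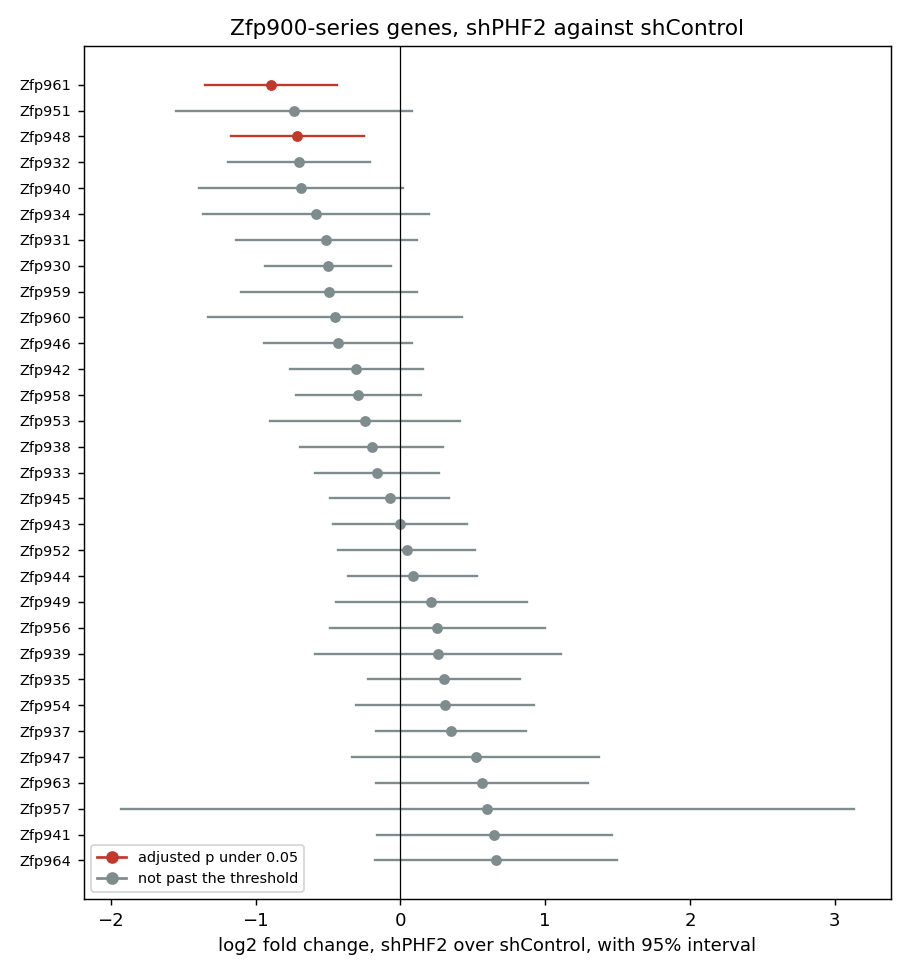
Log2 fold change of shPHF2 over shControl (horizontal axis) with its 95% interval for the 31 Zfp900-series genes tested, from limma. Zfp961 and Zfp948, in red, passed the threshold; the other 29, in grey, did not, and the interval of Zfp957 is the widest, from -1.93 to 3.13.

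Of the members that did not pass, the 5 with the largest log2 fold changes in size are given first. Zfp951, on chromosome 5, had 646 and 357 normalised reads in the shPHF2 libraries, against 800.4 in shControl, a log2 fold change of -0.74 (adjusted p = 0.20 by limma; SE 0.35). Its shPHF2 replicates stood far apart, and replicate 1 lay nearer to the control than to replicate 2. Zfp932, also on chromosome 5, had 807 and 938, against 1413 in shControl, a log2 fold change of -0.70 (adjusted p = 0.065 by limma; SE 0.21). Both shPHF2 values were below the single control value, as they were for 41.8% of all genes tested. On the recovered reads edgeR called it lower (adjusted p = 0.045) and DESeq2 did not (adjusted p = 0.10). Zfp940, on chromosome 7, had 279 and 225, against 404 in shControl, a log2 fold change of -0.68 (adjusted p = 0.17 by limma; SE 0.31).

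Among these largest changes, the positive ones were in genes with few reads. Zfp964, of the chromosome 8 run, had 178 and 189 normalised reads in the shPHF2 libraries, against 116 in shControl, a log2 fold change of 0.66 (adjusted p = 0.26 by limma; SE 0.36). Zfp941, on chromosome 7, had 218 and 190, against 130 in shControl, a log2 fold change of 0.65 (adjusted p = 0.25 by limma; SE 0.35). Both had shPHF2 replicates close together and above the control, and for each the interval ran from below 0 to more than 1 on the log2 scale, from -0.17 to 1.49 and from -0.16 to 1.46.

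The 10 members with the highest means included both genes that fell, and of all genes at or above the mean of the 10th member 11.8% were called lower and 7.31% higher. Zfp945, with 18 fingers, was the most abundant by reads and had 3667 and 3275 normalised reads in the shPHF2 libraries, against 3643 in shControl. Its control value lay between the replicates, and its interval ran from -0.48 to 0.34 on the log2 scale. Zfp958, on chromosome 8, had 1428 and 1526, against 1805 in shControl, and Zfp933, on chromosome 4, had 1494 and 1475, against 1660. Both lay below the control in each replicate, with log2 fold changes of -0.29 and -0.16 (limma, adjusted p = 0.33 and 0.60). Zfp944 had 1265 and 1259, against 1190 in shControl, and was the only 1 of these 10 with a positive log2 fold change, of 0.08. Per kilobase of annotated exon, Zfp958 and Zfp948 had the highest mean levels over the 3 libraries. Zfp958 had 604 and 646 normalised reads per kilobase in the shPHF2 libraries and 764 in shControl. Zfp948 had 506 and 434, against 768, below Zfp958 in both shPHF2 libraries and close to it in shControl. In the same unit Zfp961 had 215 and 230, against 413, and Zfp964 had 23.4 and 24.9, against 15.2.

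The sign of the log2 fold change is given next by abundance, as a description with no test. Of the 10 most abundant, 9 were below 0, with a median of -0.30. Of the 21 others tested, 9 were below 0, with a median of 0.22. Replicates 1 and 2 taken alone gave medians of -0.26 and -0.33 for the 10. For the 21 they gave -0.0013 and 0.089, so neither replicate alone reached 0.22. Both shPHF2 libraries were below shControl for 7 of the 10, above it for 1 and on either side for 2. For the 21 these counts were 9, 10 and 2. All genes tested had medians in the same order. At or above the mean of the 10th member, 55.0% of all genes were below 0 with a median of -0.06, and in the range of the other 21 members 46.2% were, with a median of 0.07. In the lower range 2.86% of all genes were called lower and 7.23% higher, and 0 of the 21 members were called in either direction.

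**Figure D3:**
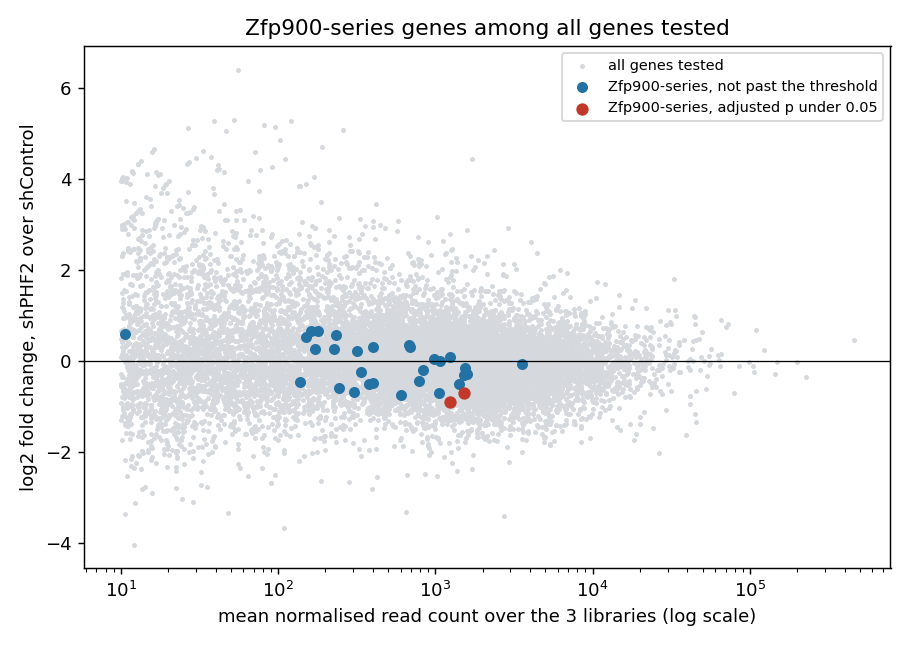
Log2 fold change of shPHF2 over shControl (vertical axis) against the mean normalised read count over the 3 libraries (horizontal axis, log scale) for all 14148 genes tested (grey) and the 31 Zfp900-series genes. The Zfp900-series points lie between -0.89 and 0.66, inside the cloud of all genes.

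Neighbouring members had log2 fold changes of both signs. In the chromosome 17 run, Zfp948 fell and the other 6 were not called. The log2 fold change was -0.43 for Zfp946 (SE 0.22; 663 and 744 normalised reads in the shPHF2 libraries, 949 in shControl) and 0.52 for Zfp947 (SE 0.37; 168 and 164, against 116). Zfp942 and Zfp943 start 88 bases apart on opposite strands. Zfp942 had 1521 and 1292 normalised reads in the shPHF2 libraries, against 1732 in shControl, a log2 fold change of -0.31 (SE 0.20), and Zfp943 had 1037 and 1103, against 1073, a log2 fold change of 0.00 (SE 0.20). Neither passed (limma, adjusted p = 0.34 and 0.99).

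In the chromosome 8 run, Zfp930 had 1224 and 1259 normalised reads in the shPHF2 libraries, against 1757 in shControl, a log2 fold change of -0.50 (adjusted p = 0.11 by limma; SE 0.19). Its neighbour Zfp963 had 253 and 269, against 176 in shControl, a log2 fold change of 0.56 (adjusted p = 0.27 by limma; SE 0.32), next to Zfp964 above. Each of the 3 had both shPHF2 replicates on 1 side of the control, below the control for Zfp930 and above it for Zfp963 and Zfp964. Zfp935 and Zfp934 on chromosome 13 overlap on the same strand by 78685 bases, and how reads in shared exons were counted is not stated. Zfp935 had 778 and 699, against 598 in shControl, and Zfp934 had 238 and 178, against 310.0, and neither passed (limma, adjusted p = 0.41 and 0.28).

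Of the remaining members tested, none passed the threshold. Zfp931, Zfp959, Zfp960, Zfp953 and Zfp938 were below the control in both shPHF2 libraries, at 70.2% to 87.2% of its value on average, with log2 fold changes from -0.51 to -0.20. Zfp937, Zfp954, Zfp949, Zfp956 and the pseudogene Zfp939 were above it in both, at 116% to 128% of its value, with log2 fold changes from 0.22 to 0.35. Zfp952 had 952.1 and 1014 normalised reads in the shPHF2 libraries, against 952.9 in shControl. Zfp957 had 8 and 15 reads in the shPHF2 libraries and 7 in shControl, too few to resolve a difference. The 27 members tested with a KRAB match had a median log2 fold change of -0.25, and the 4 members without one, including the pseudogene and Zfp957, had 0.28; none of those 4 was called. The difference was not tested, and the 4 had means of 10.6 to 692 normalised reads. All 4 were among the 21 less abundant members, whose median was 0.22, and -0.0013 and 0.089 in replicates 1 and 2 taken alone.

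The rest of the numbered series is given for comparison, with no test of the difference. Of 298 genes tested among Zfp1 to Zfp899, 10 fell and 5 rose (limma), 5.03% in all, beside 6.45% for the 31 members and 14.3% for all genes tested. Their median log2 fold change was -0.11. Log2 fold changes under 0.5 in size were found for 76.5% of those 298, for 58.1% of the 31 members and for 57.6% of all genes tested.

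Several genes on a list of KRAB corepressors and of other silencing genes fell in the shPHF2 libraries. This corepressor list, with 3 well-studied KRAB zinc finger genes among its entries, held 37 names, 33 of them in the table. It was chosen with earlier results of these data known. Of the 33, 10 fell and 0 rose (limma), a share of 30.3%, with a median log2 fold change of -0.47. Of all genes tested, 7.11% were called lower, and 11.8% of those at or above the mean of the 10th most abundant member. The listed genes had means from 63.7 to 39000 normalised reads, and the shares were not tested against each other. On the recovered reads edgeR called 10 of them lower and DESeq2 10, and limma called 0 in the settings that called no gene. The HP1 genes Cbx5 and Cbx3 were among those that fell. Cbx5 had 25653 and 20587 normalised reads in the shPHF2 libraries, against 70749 in shControl, a log2 fold change of -1.62 (adjusted p = 0.0094 by limma; SE 0.25). Cbx3 had 280.1 and 259, against 601 in shControl, a log2 fold change of -1.15 (adjusted p = 0.032 by limma; SE 0.28). The third HP1 gene, Cbx1, had 1530 and 1748, against 1742 in shControl, and did not pass (limma, adjusted p = 0.79).

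Among the enzymes, Setdb1, the methyltransferase of the KRAB pathway, had 3795 and 3685 normalised reads in the shPHF2 libraries, against 6019 in shControl, a log2 fold change of -0.69 (adjusted p = 0.036 by limma; SE 0.17). Suv39h2 and Suv39h1, methyltransferases of constitutive heterochromatin, fell by 1.38 and 0.82 on the log2 scale, and the maintenance DNA methylation genes Dnmt1 and Uhrf1 fell by 1.22 and 0.97 (limma, adjusted p = 0.0085 to 0.026). Trim33, a relative of Trim28, Morc3, a chromatin ATPase gene, and Pphln1, a subunit of the HUSH silencing complex, fell by 0.76, 1.00 and 0.87 on the log2 scale (limma, adjusted p = 0.017 to 0.028). Trim28 itself had 14024 and 13939, against 19912 in shControl, at a log2 fold change of -0.51 (SE 0.20), and did not pass (limma, adjusted p = 0.12). The KRAB zinc finger genes on the list were not called either. Zfp57, which guards imprinted loci, had a log2 fold change of -0.77 (limma, adjusted p = 0.091), Zfp568 of -0.73 (adjusted p = 0.095) and Zfp809, a silencer of retroviruses, of 0.09 (adjusted p = 0.82).

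**Figure D4:**
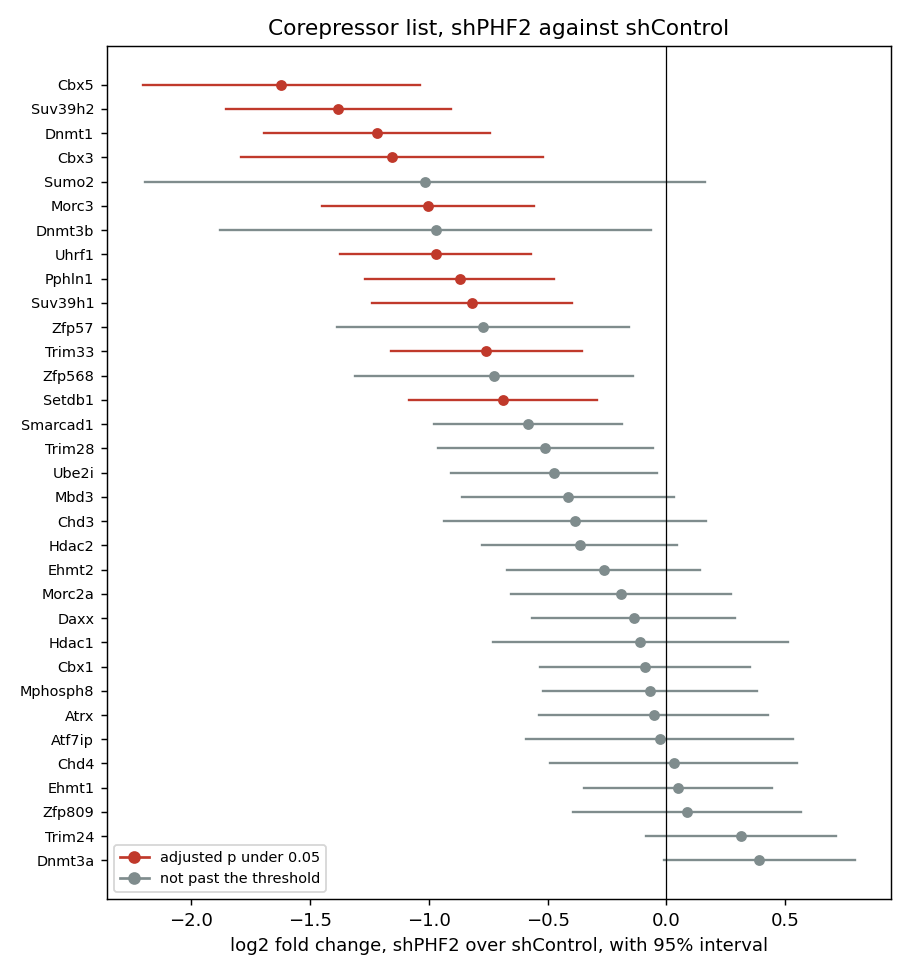
Log2 fold change of shPHF2 over shControl (horizontal axis) with its 95% interval for the 33 genes of the corepressor list in the table, from limma. The 10 in red passed the threshold and all lie below 0, from Setdb1 at -0.69 to Cbx5 at -1.62.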

How the data were processed

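The tools HISAT2, HTSeq and DESeq2 and the build mm10 come from the submitters' processing notes; versions, annotation, strand setting and the handling of reads that align to several copies are not stated. KRAB zinc finger genes are related copies, so their values are uncertain to that extent. The deposited signal of each gene was taken to be its read count divided by the authors' size factor from DESeq2, which the headers of the library columns do not state. All values (100%, within 0.001) were whole multiples of the column's smallest, so whole reads were recovered. The deposited table also holds the authors' log2 fold change, Wald score, p-value and adjusted p-value, per the file headers. In shPHF2 replicate 1, replicate 2 and shControl, 15.9%, 20.5% and 17.0% of reads were of low alignment quality; 4 rows that name no gene were left out of the tests. All library columns were used.

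The log2(value + 1) values were tested in limma 3.58.1 (mean-variance trend, two-sided, Benjamini-Hochberg) in R 4.3.3 for genes with a mean of at least 10. The fit has 1 residual degree of freedom and 6.94 prior ones; the single shControl library is taken to vary as the shPHF2 libraries do. The fold change is on the log2(value + 1) scale and understates low genes. edgeR 4.0.16 and DESeq2 1.42.0 on recovered reads were alternatives. The scripts were tested on simulated data. The members and lists were chosen with earlier results of these data known. The genes described are those past the threshold, the 10 with the highest means, the 5 largest not past it, and those with reads in only 1 group; neighbours within 1 Mb are described together, and other members by range. Exon lengths and coordinates are from GENCODE M21 (GRCm38). Fingers and KRAB boxes were searched as residue patterns in the longest reading frame of each coding transcript.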

Additional observations from a re-analysis of the deposited data

How the results depend on the processing

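The number of members called lower was 2, and it was 0 with limma without the trend, without a filter on low values and with quantile normalization, and 1 with a pseudocount of 5 and with DESeq2 on the recovered reads; the cause was not tested. It was 2 or 3 under the other settings run (a pseudocount of 0.5, a minimum mean of 50, TMM scaling and edgeR), and the number called higher was 0 in every setting run. The members' median log2 fold change was -0.16; it was -0.12 without the filter, where Zfp936 also entered, and -0.10 with quantile normalization, and with each shPHF2 replicate left out it was -0.14 to -0.17. Zfp943 changed sign, to 0.0091 with quantile normalization and 0.0042 with DESeq2, and Zfp945 and Zfp957 did so with quantile normalization, to 0.041 and -0.037. With 1 shPHF2 library left out, the 4 members whose shPHF2 libraries lay on either side of shControl changed sign: Zfp943 to 0.041 without replicate 1, and Zfp945 to 0.0092, Zfp952 to -0.0013 and Zfp957 to -0.057 without replicate 2. None of these 4 members was called in any setting. Quantile normalization and TMM scaling moved the median of all genes tested by less than 0.1 on the log2 scale. No paired analysis was possible because the single shControl library carries no replicate number. With 1 control library its own error could not be estimated, and with 1 shPHF2 library left out no test has residual degrees of freedom.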
